A study of Mus musculus with 12 samples.

Results

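The core circadian clock genes of the fetal mouse ovary are described here: Per1, Per2, Per3, Cry1, Cry2, Clock, Arntl (the gene of BMAL1), Npas2, Nr1d1 and Nr1d2 (the genes of REV-ERBα and REV-ERBβ). They were chosen by gene symbol, and all 10 were found among the 54532 genes of the deposited table. RNA had been sequenced in 12 libraries in 4 groups of 3, from ovaries of E15.5 (embryonic day) mouse embryos that carried the germ cell reporter transgene Tg(Pou5f1-EGFP)2Mnn. Dams had been given dexamethasone (dex), a synthetic glucocorticoid receptor agonist, at a dose of 10 µg for each g that the dam weighed, or saline vehicle. Both were injected intraperitoneally once a day on 4 days, first at E12.5 and last at E15.5. After removal of the mesonephroi, ovaries were sorted by FACS into GFP+ germ cells and GFP- somatic cells, the latter being every other cell type of the ovary together. The dex germ cells, saline germ cells, dex somatic cells and saline somatic cells all carried the reporter, so no group lacked it. Each library held sorted cells from ovaries pooled over several separately dosed litters, and the spread between libraries is therefore a spread between pools. Dams of both treatments were dosed in the morning and dissected in the afternoon of the last injection day, so each level below is from 1 phase of the day and cannot show a rhythm.

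In mammalian cells the circadian clock is a loop of transcription factors that repress their own activators. CLOCK, or its paralog NPAS2, pairs with BMAL1 and binds E-boxes, a DNA motif in the control regions of the Per and Cry genes. PER and CRY proteins then gather in the nucleus and block that pair, and the nuclear receptors REV-ERBα and REV-ERBβ form a further loop by repressing Arntl. Per1 and Per2 are also textbook targets of the glucocorticoid receptor, by which adrenal hormone sets the phase of clocks in peripheral tissues.

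Sequences before the transcription start are shown for 3 members that carried clock motifs there and that differed in their behaviour in these cells: Per1, Cry1 and Per3. They were taken from RefSeq promoter windows (build GRCm38.p6), which run from 250 bases before to 50 bases after a start and were found for 9 of the 10 members, in 13 windows. Per2 had no entry. Each is written 5′ to 3′ on the strand of its gene, and capitals mark a motif: the E-box CACGTG, its variant CACGTT (in Cry1 on the other strand, so shown as its reverse complement), or the D-box, TTATGTAA, which PAR-domain factors such as DBP and the repressor NFIL3 bind. The Per1 stretch covers the last 250 bases before the start, the Cry1 stretch the last 120, and the Per3 stretch those from 230 to 111 bases before it.
Per1 (chr11:69098699-69098948): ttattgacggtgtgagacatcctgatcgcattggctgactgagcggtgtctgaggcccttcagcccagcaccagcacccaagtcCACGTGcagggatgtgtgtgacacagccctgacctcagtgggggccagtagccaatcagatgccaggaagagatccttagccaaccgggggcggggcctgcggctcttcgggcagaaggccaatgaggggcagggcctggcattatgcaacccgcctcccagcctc
Cry1 (chr10:85185055-85185174): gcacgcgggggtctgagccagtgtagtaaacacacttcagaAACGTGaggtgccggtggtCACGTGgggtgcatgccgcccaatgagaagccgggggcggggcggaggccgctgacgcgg
Per3 (chr4:151044776-151044895): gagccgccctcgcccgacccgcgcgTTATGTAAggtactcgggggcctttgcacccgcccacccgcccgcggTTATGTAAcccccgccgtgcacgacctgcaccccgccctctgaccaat
The E-box of Per1 began 166 bases before the start, and that of Cry1 began 60 bases before its own, with a variant 79 bases before. For Per1 this is a RefSeq start inside the gene as counted here, which begins at base 69095217, so the stretch shown lies within that gene. Per3 held 2 D-boxes, at 205 and 158 bases before the start. Cry2 held a variant E-box at 166 bases and Nr1d1 another at 28 bases. Searched on both strands, CACGTG was in 7.15% of all 32851 promoter windows, CACGTT in 4.68% and TTATGTAA in 0.938%. The windows of Clock, Arntl, Npas2 and Nr1d2 held none of these letters. A full palindromic glucocorticoid response element (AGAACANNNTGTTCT) was in 0.00913% of all windows, 3 of 32851, and in no member's window. For so rare a motif in windows this short, that absence does not show that a member lacks receptor sites.

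Library totals were 14658503 to 17616664 counts in germ cells and 15161804 to 18245507 in somatic cells, so that 3 counts correspond to 0.169 to 0.201 CPM (counts relative to the library total). Levels are given in CPM on library sizes scaled by the trimmed mean of M-values (TMM), as the mean ± SD of 3 libraries. The summed level of 10 germ cell markers was 4714 to 4932 CPM in dex and 5132 to 5713 CPM in saline germ cells. It was 20.5 to 34.8 CPM in dex somatic cells and 11.8 to 19.1 CPM in saline somatic cells, where up to 3 of the 10 were at 0. Most of that gap was Dazl, at 12.6 to 12.9 CPM after dex and 0.971 to 1.35 CPM after saline in somatic cells, and the sum of the other 9 overlapped, at 7.67 to 22.2 CPM after dex and 10.6 to 17.7 CPM after saline. Pou5f1, whose regulatory sequence drives the reporter, was at 19.0 ± 6.05 CPM in saline germ cells, 0.0619 ± 0.0607 CPM in saline somatic cells and at 0 in all 3 dex somatic libraries. The receptor gene Nr3c1 was at 159 ± 6.59 CPM in saline germ cells against 84.3 ± 6.29 CPM in saline somatic cells, and it was not called after dex in either (adjusted p = 0.941 in germ cells and 0.327 in somatic cells, edgeR). Among somatic cells, 7 macrophage markers summed to 37.8 to 87.5 CPM after dex and 122 to 156 CPM after saline, and 7 erythroid markers to 3323 to 16520 CPM after dex and 7402 to 12480 CPM after saline. In such mixed samples, fewer cells of a type and less RNA in each of them cannot be told apart.

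Without dex, germ and somatic cells held different sets of clock transcripts. To compare genes with each other, levels were read per length, as deposited FPKM. In saline germ cells Nr1d2 led at 41.6 ± 1.16 FPKM (SD, n = 3), followed by Cry1 at 26.0 ± 1.28, Clock at 19.3 ± 1.51 and Per3 at 18.8 ± 0.881, the last 2 with overlapping libraries. Cry2 followed at 4.41 ± 0.300 FPKM, then Per1 at 2.57 ± 0.231 and Arntl at 2.34 ± 0.301, which overlapped, Per2 at 1.85 ± 0.213 and Nr1d1 at 1.74 ± 0.139, which also overlapped, and Npas2 at 0.214 ± 0.102. The order in saline somatic cells was headed by Per1 at 14.3 ± 1.09 FPKM and Cry1 at 12.4 ± 1.04, whose libraries were separate. Cry2 at 5.09 ± 0.138, Clock at 3.17 ± 0.183, Nr1d2 at 2.68 ± 0.161 and Per2 at 2.13 ± 0.128 FPKM came next, each below all libraries of the one before. Nr1d1 at 1.601 ± 0.0606 and Per3 at 1.49 ± 0.231 FPKM overlapped, as did Npas2 at 1.14 ± 0.109 and Arntl at 1.07 ± 0.0687.

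**Figure D1:**
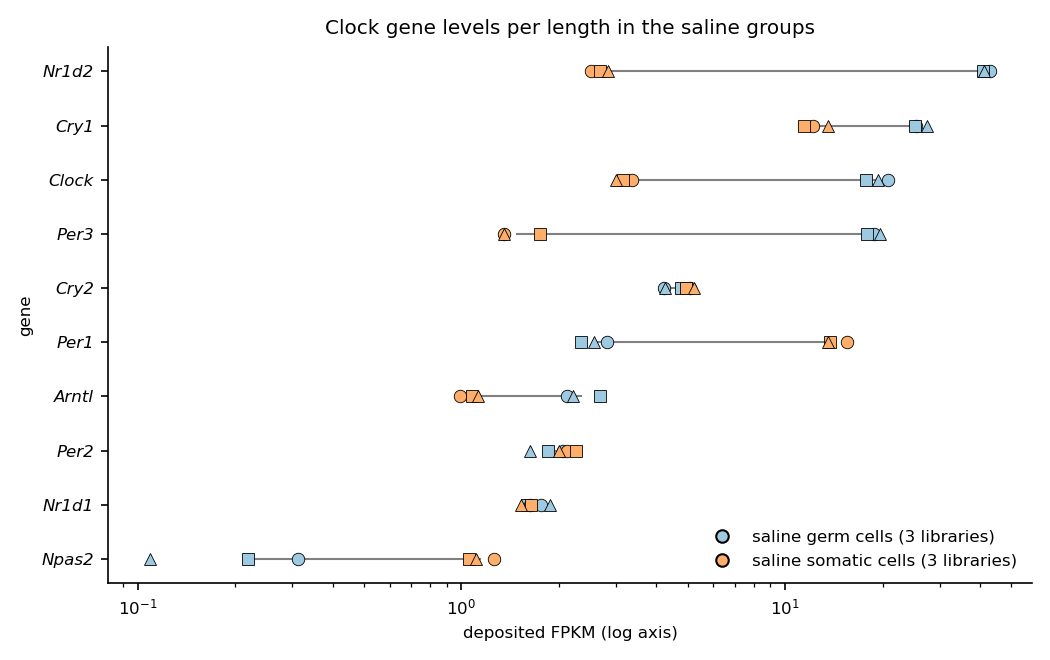
Deposited FPKM (x axis, log scale) of the 10 clock genes (y axis, ordered by the germ cell mean) in the 3 saline germ cell and 3 saline somatic libraries, with circles, squares and triangles for replicates 1, 2 and 3 and a line joining the group means. Nr1d2, Clock, Per3, Cry1 and Arntl lie higher in germ cells, Per1 and Npas2 lie higher in somatic cells, and Per2, Nr1d1 and Cry2 lie close together.

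Per length, the partner genes of each pair were weighted differently. Per3 made up 80.9 ± 1.49% of the summed FPKM of the 3 Per genes in saline germ cells, and Per1 made up 79.8 ± 2.16% of it in saline somatic cells. After dex the Per1 share was 30.6 ± 6.15% in germ cells, where Per3 remained the larger at 62.4 ± 6.18%, and 80.6 ± 1.91% in somatic cells. In somatic cells the share of Per2 was 17.1 ± 1.40% after dex and 11.9 ± 0.774% after saline. The ratio of Cry1 to Cry2 was 5.92 ± 0.604 in saline germ cells and 2.44 ± 0.141 in saline somatic cells. For Nr1d2 over Nr1d1 it was 24.0 ± 1.88 and 1.68 ± 0.160, respectively. Clock exceeded Npas2 by 66.6-, 81.0- and 177-fold in the 3 saline germ cell libraries and by 2.66- to 2.99-fold in the saline somatic libraries, the germ ratios resting on 9 to 23 Npas2 counts a library.

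The saline groups were then compared gene by gene with edgeR's quasi-likelihood test, adjusted over all genes by the Benjamini-Hochberg method and called at an adjusted p of at most 0.05. Of the 10 members, 8 were called, 5 higher and 3 lower in germ cells, while 86.1% of the 17941 genes tested were called between these 2 cell types. A share of 8 in 10 is near that background.

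The activators were split. Clock (ENSMUSG00000029238, chromosome 5, 76209868 to 76304792, minus strand), which encodes a bHLH-PAS activator, was at 284, 244 and 260 CPM in saline germ cells against 47.4, 44.7 and 42.4 CPM in saline somatic cells, 5.90-fold higher in germ cells (log2 difference 2.56, SE 0.0812, adjusted p = 3.39e-13). Its paralog Npas2 (ENSMUSG00000026077, chromosome 1, 39193731 to 39363236, plus strand) went the other way, at 1.49, 1.05 and 0.514 CPM in saline germ cells against 6.23, 5.22 and 5.46 CPM in saline somatic cells, 5.54-fold lower in germ cells (log2 difference -2.47, SE 0.326, adjusted p = 4.83e-06). Arntl (ENSMUSG00000055116, chromosome 7, 113207465 to 113314126, plus strand), whose product is their common partner, was 2.12-fold higher in germ cells, at 17.4 ± 2.34 against 8.27 ± 0.541 CPM (log2 difference 1.09, SE 0.152, adjusted p = 8.79e-06).

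Among the Per and Cry genes, Per3 (ENSMUSG00000028957, chromosome 4, 151003652 to 151044665, minus strand) showed the widest gap, with 179, 171 and 185 CPM in saline germ cells against 13.4, 17.4 and 13.4 CPM in saline somatic cells, 12.2-fold higher in germ cells (log2 difference 3.61, SE 0.102, adjusted p = 9.76e-14). Per1 (ENSMUSG00000020893, chromosome 11, 69095217 to 69109960, plus strand) was 5.74-fold lower in germ cells (log2 difference -2.52, SE 0.0963, adjusted p = 2.7e-12). Per2 (ENSMUSG00000055866, chromosome 1, 91415982 to 91459324, minus strand) was at 10.7 ± 1.29 CPM in saline germ cells against 12.8 ± 0.800 CPM in saline somatic cells, which was not called (log2 difference -0.25, 95% interval -0.58 to 0.07, adjusted p = 0.128). Cry1 (ENSMUSG00000020038, chromosome 10, 85131700 to 85185064, minus strand) was 2.03-fold higher in germ cells, at 85.9 ± 3.53 against 42.7 ± 3.53 CPM (log2 difference 1.02, SE 0.0813, adjusted p = 1.54e-08). Cry2 (ENSMUSG00000068742, chromosome 2, 92403646 to 92434043, minus strand) was at 27.6 ± 2.05 CPM in saline germ cells against 33.2 ± 0.837 CPM in saline somatic cells, a log2 difference of -0.25 (SE 0.0985, adjusted p = 0.0267). That call was lost in 5 of 11 alternative settings, among them DESeq2 (adjusted p = 0.1) and the fits without saline germ cell replicate 1 (0.0656), saline germ cell replicate 3 (0.0794) or saline somatic replicate 3 (0.0613).

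The REV-ERB genes gave unlike results. Nr1d2 (ENSMUSG00000021775, chromosome 14, 18204054 to 18239127, minus strand) was at 231, 220 and 218 CPM in saline germ cells against 14.03, 14.96 and 15.84 CPM in saline somatic cells, 15-fold higher in germ cells (log2 difference 3.91, SE 0.0803, adjusted p = 4.99e-15). Nr1d1 (ENSMUSG00000020889, chromosome 11, 98767932 to 98775333, minus strand) was at 5.31 ± 0.384 CPM in saline germ cells against 5.08 ± 0.197 CPM in saline somatic cells, with overlapping libraries (log2 difference 0.07, 95% interval -0.36 to 0.51, adjusted p = 0.735). Nr1d1 shares 263 of its 3077 exon bases with Thra on the opposite strand, Cry2 shares 295 of 6320 with D930015M05Rik and Arntl 33 of 7523 with Gm45355, both also on the opposite strand. How strand was handled in counting is not given in the sources used here, so reads in those bases could belong to either gene. No other member shares exon bases with another gene of the annotation.

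**Figure D2:**
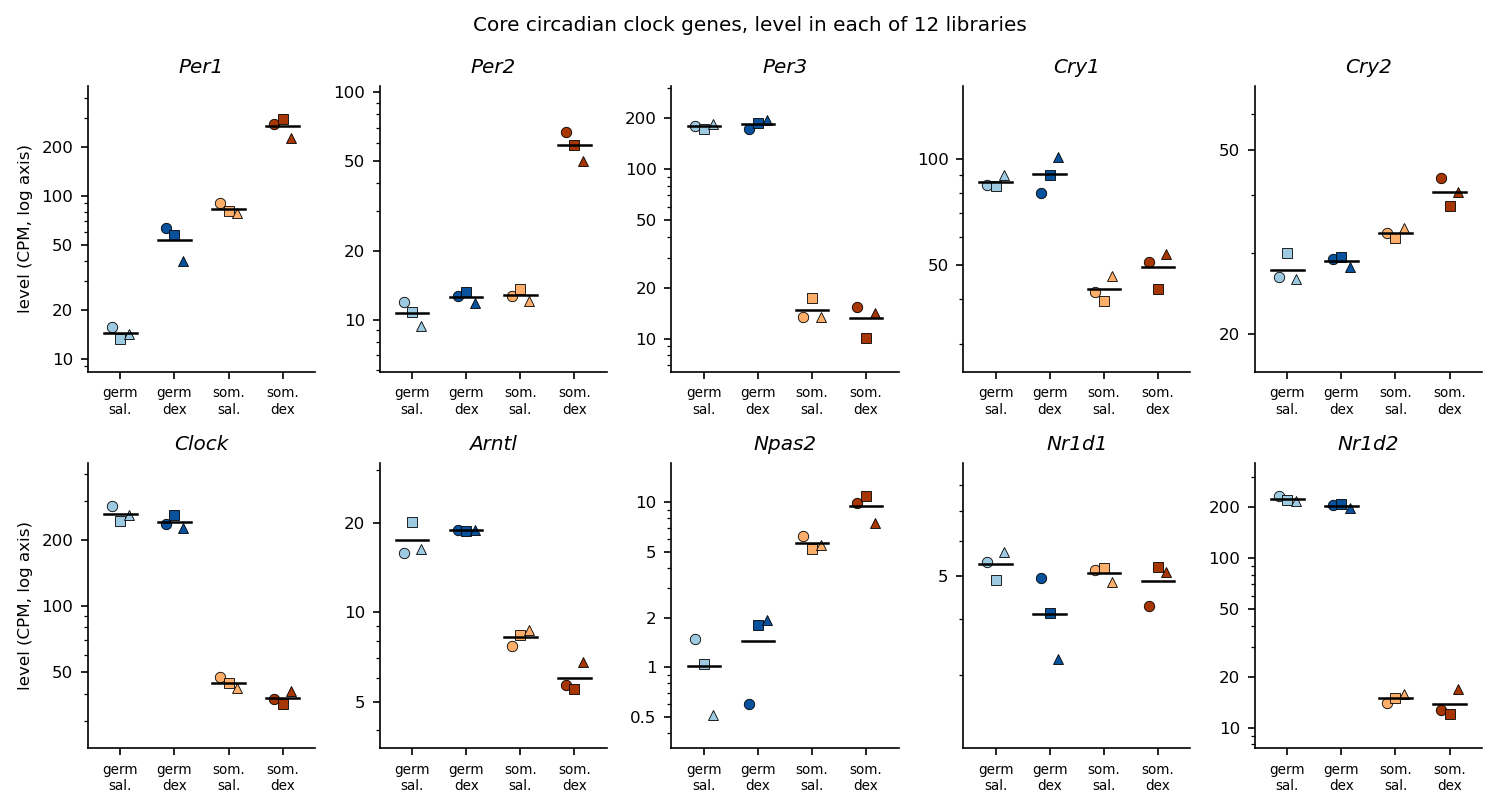
Level of each clock gene (y axis, CPM on a log scale, its range set per gene) in saline (sal.) and dex germ cells and in saline and dex somatic (som.) cells (x axis), with circles, squares and triangles for replicates 1, 2 and 3 and a bar at the group mean. Per1 stands higher after dex in both cell types, at 39.6 to 63.9 CPM against 13.2 to 15.7 CPM in germ cells, and Per2 in somatic cells, at 50.01 to 67.3 CPM against 12.1 to 13.7 CPM.

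The next question was which clock genes were called after dex in the germ cells. Only Per1 was called, and its level was 63.9, 57.5 and 39.6 CPM after dex and 15.7, 13.2 and 14.2 CPM after saline. All 3 dex libraries stood above all 3 saline libraries, and the lowest of them was dex replicate 3. The rise was 3.76-fold (log2 fold change 1.91, SE 0.161, adjusted p = 0.000906), and by p-value it came 1st of 16857 genes tested, while by fold change it was 8th of the 15 genes that rose. In all, 0.208% of the genes tested were called, and 0.089% were called higher after dex, against 1 of 10 members. Read against somatic cells, the dex germ cell level of Per1 remained below the saline somatic one of 90.0, 80.2 and 78.5 CPM.

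Of the other 9 members none was called in germ cells by edgeR, with 0 at an unadjusted p under 0.05, and DESeq2 called none of them either. Over all 16857 genes tested, 1963 had an unadjusted p under 0.05. Per2, the close paralog of Per1, was at 12.7, 13.3 and 11.8 CPM after dex and 11.95, 10.8 and 9.37 CPM after saline, with overlapping libraries. Its log2 fold change was 0.24 with a 95% interval from -0.09 to 0.58 (adjusted p = 0.571), so a rise of the size seen for Per1 lies outside that interval. Per3 was at 185 ± 11.8 CPM after dex and 179 ± 6.97 CPM after saline (log2 fold change 0.06, interval -0.08 to 0.21). For the cryptochrome genes the intervals were similarly narrow, from -0.10 to 0.26 for Cry1 and from -0.14 to 0.28 for Cry2.

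Clock was at 235, 259 and 226 CPM after dex and 284, 244 and 260 CPM after saline in germ cells (log2 fold change -0.12, interval -0.29 to 0.05), with overlapping libraries. Arntl was at 18.8 ± 0.142 CPM after dex and 17.4 ± 2.34 CPM after saline (log2 fold change 0.12, interval -0.17 to 0.40). Npas2 was too low to place in germ cells, at 0.602, 1.81 and 1.92 CPM after dex and 1.49, 1.05 and 0.514 CPM after saline, from 9 to 33 counts a library, and its interval of -0.57 to 1.63 allows a fall as well as a rise. Nr1d2 was at 206, 208 and 196 CPM after dex and 231, 220 and 218 CPM after saline. Those libraries did not overlap, yet the difference was small and was not called (log2 fold change -0.12, SE 0.0603, adjusted p = 0.457). With Per1, that made 2 of 10 members whose dex and saline libraries were separate, beside 17.4% of all genes tested. Nr1d1 was at 4.12 ± 0.845 CPM after dex and 5.31 ± 0.384 CPM after saline, with overlapping libraries (log2 fold change -0.36, interval -0.83 to 0.11).

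Somatic transcripts were present in the germ cell libraries at a low level. The 11 pregranulosa markers were at a median of 2.63% to 8.74% of their saline somatic level in dex germ cells and 2.77% to 5.33% in saline germ cells, and the 9 stromal markers at 0.457% to 1.04% and 0.492% to 0.818%, respectively. No marker of either list was at 0 in any germ cell library. The gain of Per1 in germ cells, 39.3 CPM, was 21.4% of its gain in somatic cells, 184 CPM. The dex library with the highest Per1, replicate 1 at 63.9 CPM, had the lowest pregranulosa marker share of the 6 germ cell libraries, 2.63%. Other lists ordered the dex libraries otherwise. Endothelial markers summed to 59.2, 54.4 and 48.4 CPM in dex replicates 1, 2 and 3, the order of Per1, and to 45.0 to 52.0 CPM in saline germ cells. Of the dex sums, 34.3, 28.7 and 24.8 CPM were Tek. That gene was higher in saline germ cells, at 27.5 ± 2.63 CPM, than in saline somatic cells, at 12.4 ± 1.70 CPM. The order of the endothelial sums is therefore no gauge of somatic RNA. Stromal markers summed to 165.5, 261 and 142 CPM in the same dex replicates, lowest where Per1 was lowest. Perivascular markers summed to 10.2 to 10.3 CPM after dex and 6.27 to 8.63 CPM after saline in germ cells, a range of 1.16% to 2.64% of their somatic level. With the summed pregranulosa and stromal marker level as a covariate the log2 fold change of Per1 was 1.94 (SE 0.165, adjusted p = 0.000709). That covariate has the same slope in both treatments, while Per1 itself rose after dex in somatic cells. It therefore cannot remove a dex response carried in by somatic RNA, and the part of somatic RNA was not tested. Per2, which was not called in germ cells, gained 1.90 CPM there, 4.15% of its somatic gain of 45.8 CPM.

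**Figure D3:**
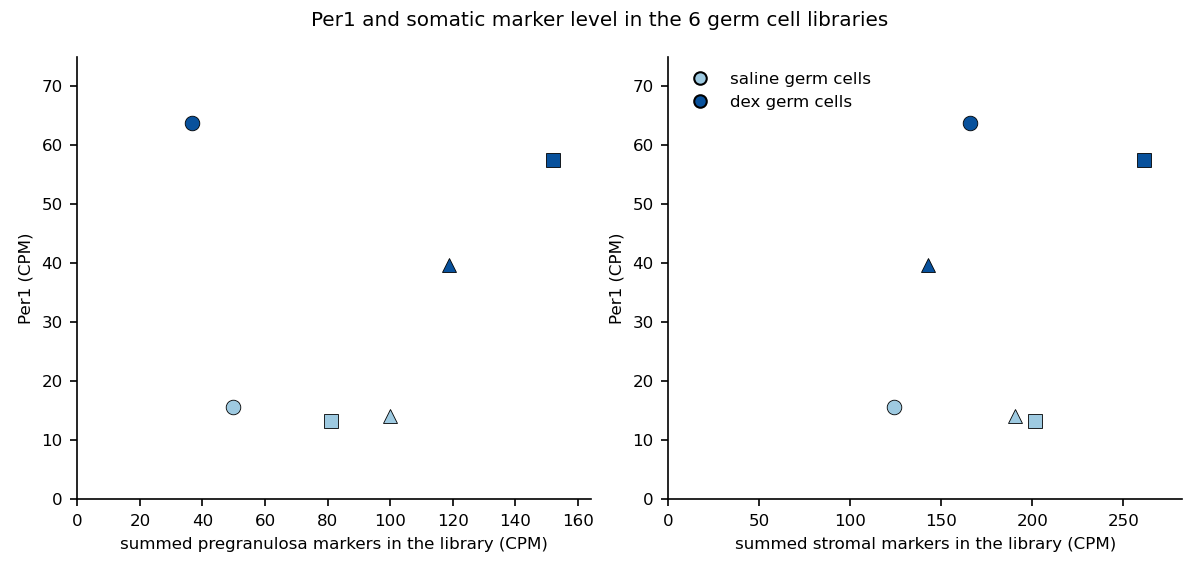
Level of Per1 (y axis, CPM) against the summed level of 11 pregranulosa markers (left, x axis in CPM) and of 9 stromal markers (right, x axis in CPM) in the 3 saline and 3 dex germ cell libraries, with circles, squares and triangles for replicates 1, 2 and 3. The dex libraries lie at 39.6 to 63.9 CPM of Per1 and the saline libraries at 13.2 to 15.7 CPM, and dex replicate 1 combines the highest Per1 with the lowest pregranulosa sum, 36.8 CPM. Among the dex libraries, replicate 3 combines the lowest Per1 with the lowest stromal sum, 142 CPM.

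In somatic cells 3 clock genes were called after dex. Per1, Per2 and Npas2 rose, none of the 10 members fell, and 3 of 10 members called compares with 8.18% of the genes tested called and 4.81% called higher. Per2 was at 67.3, 58.7 and 50.01 CPM after dex and 12.8, 13.7 and 12.1 CPM after saline. Its libraries were far apart by treatment, and its rise was the steepest of the 10, 4.56-fold (log2 fold change 2.19, SE 0.117, adjusted p = 1.11e-07). Per1 was at 277, 298 and 226 CPM after dex and 90.0, 80.2 and 78.5 CPM after saline, again with no overlap and a rise of 3.21-fold (log2 fold change 1.68, SE 0.0972, adjusted p = 2.24e-07). By fold change Per2 was 49th and Per1 87th of the 797 genes that rose. The third period gene, Per3, was not called, being at 15.3, 10.1 and 14.2 CPM after dex and 13.4, 17.4 and 13.4 CPM after saline (log2 fold change -0.17, interval -0.53 to 0.20).

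Npas2 was at 9.91, 10.9 and 7.49 CPM after dex and 6.23, 5.22 and 5.46 CPM after saline in somatic cells. Its rise of 1.67-fold (log2 fold change 0.74, SE 0.19, adjusted p = 0.0283) was the weakest of the 3 calls. The call was lost without dex somatic replicate 1 (adjusted p = 0.0755), dex somatic replicate 2 (0.127), or saline somatic replicate 1 (0.0654), 2 (0.117) or 3 (0.111). It was also lost with germ cell marker level as a covariate (0.278) and when all 12 libraries shared 1 fit (0.21).

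The other activators stood lower after dex in somatic cells without being called. Clock was at 37.7, 35.7 and 40.9 CPM after dex and 47.4, 44.7 and 42.4 CPM after saline (log2 fold change -0.24, SE 0.0846, adjusted p = 0.115), and it was called only without dex somatic replicate 3 (adjusted p = 0.0454). Arntl was at 5.68, 5.52 and 6.78 CPM after dex and 7.68, 8.38 and 8.74 CPM after saline (log2 fold change -0.47, SE 0.174, adjusted p = 0.134). Cry2 stood higher after dex, at 43.4, 37.9 and 40.6 CPM against 33.2, 32.3 and 34.0 CPM (log2 fold change 0.29, SE 0.0847, adjusted p = 0.054). In each of these 3 genes the dex and saline libraries were separate. With Per1, Per2 and Npas2, that made 6 of 10 members, 4 higher and 2 lower after dex, whose libraries were separate, beside 25.4% of all genes tested.

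The remaining somatic members showed overlapping libraries. Cry1 was at 49.2 ± 5.65 CPM after dex and 42.7 ± 3.53 CPM after saline (log2 fold change 0.20, interval -0.01 to 0.41). Nr1d1 was at 4.88 ± 0.516 CPM after dex and 5.08 ± 0.197 CPM after saline (log2 fold change -0.06, interval -0.50 to 0.38). Nr1d2 was at 13.9 ± 2.72 CPM after dex and 14.9 ± 0.904 CPM after saline (log2 fold change -0.11, interval -0.43 to 0.21). The macrophage markers named above were lower in each dex somatic library than in all saline somatic libraries, and their part in these changes was not tested. With the summed germ cell markers as a covariate, which separated the treatments through Dazl, Per1 and Per2 were still called, at log2 fold changes of 1.83 and 2.37. With Dazl left out of that sum, a setting chosen after seeing the data, the calls were Per1 (1.70), Per2 (2.21), Npas2 (0.77, adjusted p = 0.0278) and Cry2 (0.30, adjusted p = 0.048, edgeR).

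**Figure D4:**
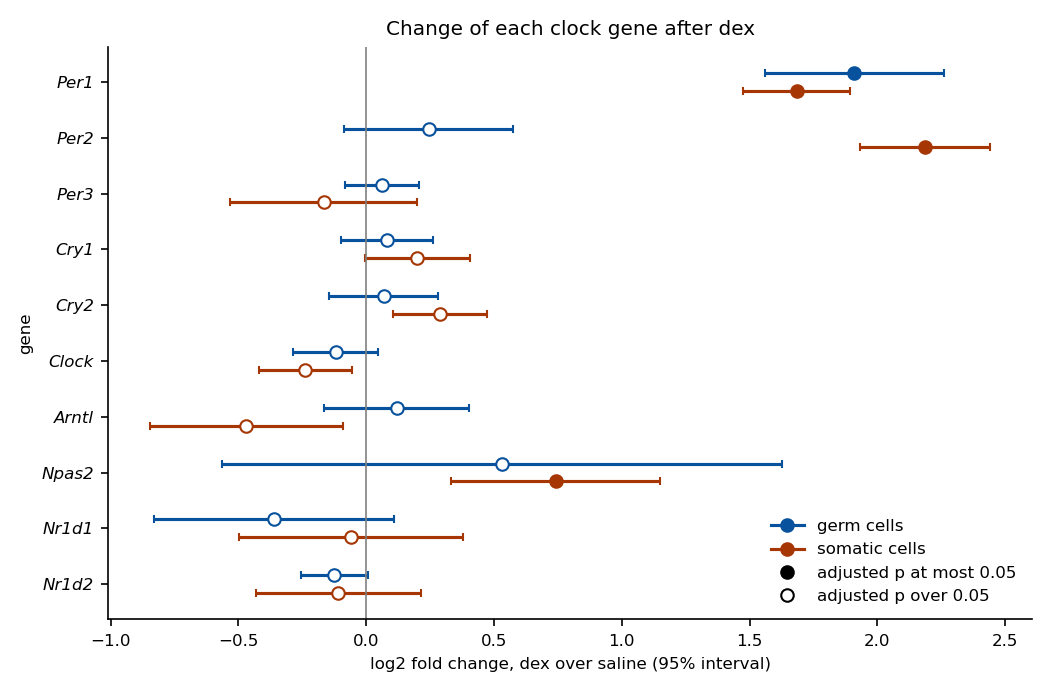
Log2 fold change of each clock gene (y axis) after dex (x axis, dex over saline) in germ cells and in somatic cells, with 95% intervals from edgeR and filled points where the adjusted p was at most 0.05. Per1 lies at 1.91 and 1.68 in germ and somatic cells, and Per2 lies at 0.24 in germ cells and 2.19 in somatic cells, with intervals that do not meet.

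Germ and somatic responses were then set against each other as an interaction over all 12 libraries. Per2 was the only member called, beside 1.62% of the 19390 genes tested. Its germ cell response was 3.88-fold smaller than its somatic response (log2 difference -1.96, SE 0.187, adjusted p = 2.37e-05), and that call was kept under each of the 16 alternative settings, with log2 differences from -2.04 to -1.83. For Per1 no difference was called: its log2 response was larger in germ cells by 0.21, with a 95% interval of -0.21 to 0.64 (adjusted p = 0.664). Per1 was thus called between the cell types for its saline level and not for its response, and Per2 for its response and not for its saline level. Arntl had the next largest difference by p-value, 0.58 higher in germ cells (SE 0.207, adjusted p = 0.194), which was not called. For Npas2 the interval ran from -1.31 to 0.89, so that its somatic rise cannot be set apart from the germ cell value. The intervals of the other 6 members all held 0, within -0.93 and 0.58.

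Proteins that modify or degrade the clock factors were read as a list of 31 genes, among them casein kinases, ubiquitin ligase subunits and coregulators. In germ cells edgeR called 0 of 31 after dex, beside 0.208% of all genes tested, so that 0 of 31 is near that background. At an unadjusted p under 0.05 were 2 of 31, beside 1963 of all 16857 genes tested, and DESeq2 called 0. In somatic cells 2 of 31 rose and 1 fell, close to the 8.18% called in either direction among all genes tested. Usp2, a deubiquitinase whose targets include clock proteins, was at 32.2, 27.9 and 32.2 CPM after dex and 20.4, 19.0 and 17.0 CPM after saline (1.63-fold, log2 fold change 0.71, SE 0.11, adjusted p = 0.00113). Nampt, the rate-limiting enzyme of NAD salvage, was at 56.4, 61.1 and 58.5 CPM after dex and 45.9, 38.2 and 39.6 CPM after saline (1.42-fold, adjusted p = 0.00201). Sfpq, an RNA-binding protein found with PER complexes, fell from 607 ± 7.28 to 512 ± 35.3 CPM (log2 fold change -0.25, adjusted p = 0.0275). The median log2 fold change of the list was -0.04 in germ cells and 0.02 in somatic cells, beside 0.01 and 0.00 over all genes tested. The response differed between cell types for Usp2 (log2 difference -0.98, adjusted p = 0.0188) and Nampt (-0.62, adjusted p = 0.00682), in both smaller in germ cells. These were 2 of 31 called for the difference, beside 1.62% of all genes tested.

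The 11 genes of the second loop and of clock output include the ROR receptors, the repressors Bhlhe40 and Bhlhe41, and the D-box factors Dbp, Tef, Hlf and Nfil3. None of the 11 was called in germ cells by edgeR, with 1 at an unadjusted p under 0.05 and 0 called by DESeq2, beside 0.208% of all genes tested called. Of all 16857 genes tested there, 1963 had an unadjusted p under 0.05. In somatic cells 3 of 11 rose, beside 4.81% of all genes tested. Hlf, an activator at D-boxes, was at 36.1, 36.1 and 30.1 CPM after dex and 12.52, 11.9 and 13.1 CPM after saline in somatic cells (2.71-fold, log2 fold change 1.44, SE 0.115, adjusted p = 3.68e-06). In germ cells it was at 12.9 ± 0.568 CPM after dex and 15.3 ± 1.36 CPM after saline, and its response differed between the cell types (log2 difference -1.69, SE 0.173, adjusted p = 4.59e-05). Hlf was the 1 gene of the 11 called for that difference, beside 1.62% of all genes tested. Nfil3, the repressor at the same motif, was at 38.7, 36.3 and 29.7 CPM after dex and 17.9, 19.0 and 20.7 CPM after saline in somatic cells (1.81-fold, adjusted p = 0.000441). Bhlhe40, which competes for E-boxes, was at 46.1, 48.5 and 59.8 CPM after dex and 28.4, 30.6 and 35.9 CPM after saline (1.62-fold, adjusted p = 0.00173). Dbp was at 16.8 ± 0.976 CPM after dex and 15.7 ± 1.66 CPM after saline (log2 fold change 0.10, adjusted p = 0.722), and Tef at 108 ± 4.33 CPM after dex and 99.3 ± 1.56 CPM after saline (0.12, adjusted p = 0.278). Per3, whose promoter carries 2 D-boxes, was not called in those cells, as given above. The list's median was 0.02 in germ cells and 0.10 in somatic cells.

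Among 20 general glucocorticoid target genes, a list that itself holds Per1, 17 were tested in germ cells and 18 in somatic cells. In germ cells 4 rose and none fell, beside 0.089% of all genes tested called higher, and DESeq2 called 5. At an unadjusted p under 0.05 (edgeR) were 9 of 17, beside 1963 of all 16857 genes tested. The 4 called by edgeR were Zbtb16 (7.78-fold, from 0.450 ± 0.253 CPM), Per1 (3.76-fold), Hif3a (2.54-fold) and Nfkbia (1.98-fold). The germ cell gain was 3.12 CPM for Zbtb16, 4.49% of its somatic gain, 11.5 CPM for Hif3a, 3.67% of its somatic gain, and 19.0 CPM for Nfkbia against 6.90 CPM in somatic cells. The part of somatic RNA in these 3 gains was not tested. In somatic cells 14 of 18 rose, beside 4.81% of all genes tested, and none fell, from Sgk1 (1.33-fold), Ddit4 (1.48-fold) and Mt1 (1.59-fold) through Errfi1, Glul (both 1.96-fold), Tsc22d3 (2.12-fold), Fkbp5 (2.45-fold), Hif3a (2.74-fold), Per1, Lcn2 (3.64-fold), Pdk4 (4.47-fold), Cebpd (4.77-fold) and Klf9 (8.96-fold) to Zbtb16 (122-fold, from a saline level of 0.559 ± 0.331 CPM). The median log2 fold change was 0.50 in germ cells and 1.03 in somatic cells. The response was smaller in germ cells for 7 of the 18 genes tested, namely Fkbp5, Tsc22d3, Zbtb16, Klf9, Cebpd, Errfi1 and Glul, and larger for Nfkbia, which encodes an inhibitor of NF-κB (log2 difference 0.88, adjusted p = 0.000865). Over all genes tested, 1.62% were called for this difference in either direction. Per1 and Hif3a (log2 difference -0.12, adjusted p = 0.732) were the genes of the list that rose in both cell types with no difference called. The somatic level of Hif3a was high, 180 ± 8.29 CPM against 7.55 ± 0.143 CPM in saline germ cells, and its germ cell values of 16.6, 22.2 and 18.4 CPM after dex did not overlap the saline values.

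**Figure D5:**
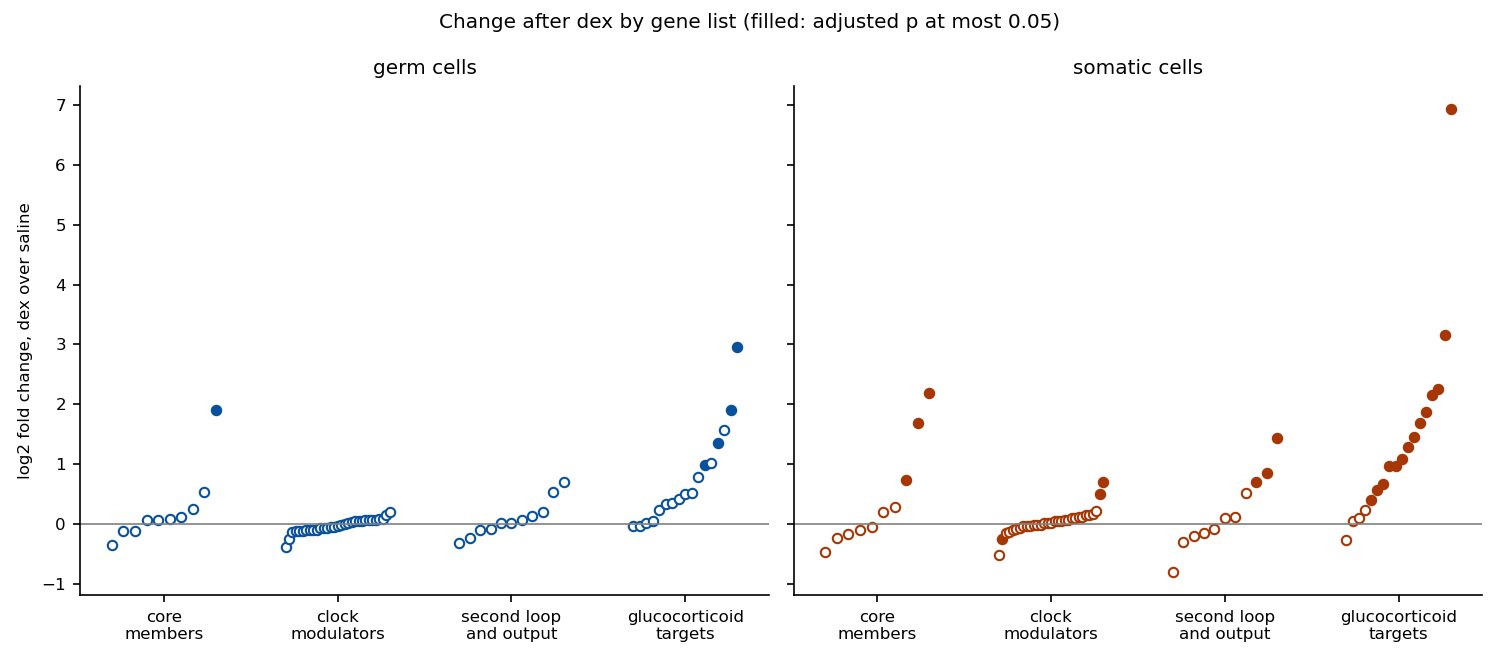
Log2 fold change after dex (y axis) of the genes of 4 lists (x axis), sorted within each list, in germ cells (left) and somatic cells (right), with filled points where the adjusted p was at most 0.05. Per1 at 1.91 is the filled point among the core members in germ cells, none of the 31 modulators is filled in germ cells and 3 are in somatic cells, and most glucocorticoid targets are filled in somatic cells, 14 of 18.

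The genes whose levels went most like Per1 were found by Pearson correlation of log2 CPM over the 12 libraries, among 16146 genes. They were Gm11827 (r = 0.984), E230001N04Rik (0.974), Hdc (0.973), Sra1 (0.960) and Map3k6 (0.958). These libraries differ by both cell type and treatment, so the values describe the ordering of the 4 groups rather than a relation within any of them. Hdc, the gene of histidine decarboxylase, was at 17.5, 28.9 and 9.39 CPM in dex germ cells and 3.75, 1.75 and 5.20 CPM in those given saline. In somatic cells it was at 90.7, 140 and 69.2 CPM after dex and 19.1, 23.1 and 23.7 CPM after saline. Like Per1 it was higher after dex than after saline in every library of both cell types, with a wider spread between replicates. Sra1 moved over a narrow range, from 54.3 ± 2.11 CPM in saline germ cells to 82.7 ± 3.00 CPM in dex somatic cells. Gm11827 and E230001N04Rik were low, with 0.136 ± 0.130 and 0.0989 ± 0.0659 CPM in saline germ cells, where some libraries were under the level of 3 counts.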

How the data were processed

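Ovarian germ and somatic cell RNA had been poly-A selected, primed with random hexamers and sequenced paired-end. Per the labels and the submitters' processing notes, the authors used HISAT2 2.0.5 (mm10), featureCounts 1.5.0-p3 and DESeq2 1.20.0. The strand setting and the treatment of multiply mapped reads were not given in the sources used here, and overlapping or near-identical genes may have been counted together. The authors deposited raw counts per gene and, in a separate table, FPKM (fragments per kilobase of exon, relative to depth). Deposited counts were the input of every test, and deposited FPKM served only to compare levels between genes. The tables of the authors' own comparisons (fold changes, p-values) were not used.

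Groups followed the labels. Counts were tested with edgeR 4.0.16 in R 4.3.3 (TMM, filterByExpr, glmQLFit and glmQLFTest) on the groups compared, or on all 12 libraries for the difference of responses, with Benjamini-Hochberg adjustment over all genes tested. The SE was taken from the quasi-likelihood F. Nothing was imputed, and replicates differed by more than counting noise. The scripts were tested on simulated data. Alternatives were DESeq2 size factors, DESeq2 1.42.0, no count filter, leaving out each library, the replicate number as a block, all libraries in 1 fit, and marker level covariates (the one without Dazl was chosen after seeing the data). Depth, 14658503 to 18245507 counts, puts 3 counts at about 0.2 CPM, and covers counting error only. Member coordinates were those of the deposited table and match GENCODE vM21. Promoters came from RefSeq (GRCm38.p6).

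All 10 members and the genes of 3 lists called in a dex comparison were named, with 5 genes most like Per1 (mean of at least 1 CPM). Dbp and Tef were named after their values were seen. Members and lists were chosen with earlier results of these data known.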

Additional observations from a re-analysis of the deposited data

Results flagged for a closer look

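Per2 was singled out because its response to dex differed between the cell types in the test of the difference itself, by -1.955 on the log2 scale (germ minus somatic). Its 3 dex libraries lay at 11.8 to 13.3 CPM in germ cells and at 50.01 to 67.3 CPM in somatic cells, from saline levels of 9.37 to 11.95 and 12.1 to 13.7 CPM.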

How the results depend on the processing

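Of 520 member log2 fold changes recomputed under the alternatives, 498 kept their direction and their side of the threshold, 12 lost a call (7 of Npas2 in somatic cells, 5 of Cry2 between the saline groups), 2 gained one (Clock and Cry2 in somatic cells) and 8 changed sign with a library left out, none of them called either way. With each library left out these ranged from -0.0133 to 0.151 for Cry1 in germ cells (negative without dex replicate 3) and from -0.130 to 0.0277 for Nr1d1 in somatic cells (positive without dex replicate 1). For the difference of responses they ranged from -0.519 to 0.160 for Npas2 (positive without dex or saline germ cell replicate 1) and from -0.110 to 0.157 for Nr1d2 (positive without dex germ cell replicate 3, saline germ cell replicate 1, dex somatic replicate 3 or saline somatic replicate 1). Members called stayed at 1 in germ cells and 1 for the difference, and ranged from 2 to 4 in somatic cells and from 7 to 8 between the saline groups when each library was left out.

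Counts over all genes moved more. The 35 germ cell calls were 420 without the count filter, 158 with DESeq2 and 64 in the fit of all 12 libraries, and 17 to 81 with a library left out (81 without dex replicate 1, 17 without dex replicate 2 or saline replicate 3). The 1354 somatic calls were 803 in the fit of all 12 libraries, 286 with the germ cell marker covariate (1373 with Dazl left out of it), and 754 to 1881 with a library left out (754 without saline replicate 3, 756 without saline replicate 2, 856 without dex replicate 2, 888 without saline replicate 1). The 314 calls for the difference were 727 without the filter, 620 with DESeq2 and 143 to 384 with a library left out (143 without saline somatic replicate 3), and the 15440 calls between saline groups were 15530 to 15730. The cause was not tested.

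Replicate numbers did not pair dex with saline samples throughout. Same-numbered deviations correlated at 0.132, 0.00789 and 0.0386 in germ cells and at 0.0479, -0.00971 and 0.027 in somatic cells. In each cell type only replicate 1 correlated best with its own number. Between germ and somatic cells each saline and each dex library correlated best with its own number, at 0.0543 to 0.0991 against at most -0.00988 with any other. The numbers may therefore pair the 2 cell types, though each of these correlations was under 0.1. The main tests between cell types, and of the difference of responses, treated these libraries as independent. With the replicate block, calls were 49, 1520, 313 and 15283 in the 4 comparisons, members called stayed at 1, 3, 1 and 8, and the log2 fold change of Per1 in germ cells was 1.89. In the test of the difference that block also joined dex and saline libraries of the same number. There it does not model a pairing of the cell types within each treatment. Depth limits Npas2 in germ cells, at 9 to 33 counts a library, and no dex comparison had more than 3 libraries a group.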
